A study of Mus musculus with 8 samples.

Results

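Mouse miRNAs whose miRBase number is 1000 or more were examined on miRNA arrays of whole liver from control and MCD-fed mice. The probes were picked by number: every mmu-miR probe numbered 1000 or higher, on either arm, was taken, except miR-1193, miR-1197, miR-1893, miR-2137, miR-2861, miR-3077*, miR-3096, miR-3096b, miR-3960, miR-3968, miR-5100 and miR-5126. This gave 289 of the 1135 miRNA probes on the array. Of these, 112 carry numbers in the 1000s, 4 in the 2000s, 134 in the 3000s and 39 a number of 5000 or higher, here called the 5000s. The exceptions removed 16 probes, of which 10 passed the test described below, so every count of bright or changed probes among the 289 is lowered by the choice itself.

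Control mice ate a normal diet and MCD mice ate a diet lacking methionine and choline, which produces fatty liver with inflammation and fibrosis. All animals were male C57BL/6N mice, a wild-type inbred strain, bought at 8 weeks of age, and neither group was given a drug. The sample labels give 23 weeks of diet, whereas the study's methods give a shorter time. There were 4 arrays per diet, each hybridised with labelled total RNA. The labels do not name a mouse for each array, and the p-values rest on the spread between the 4 arrays of a diet, which may be technical. In bulk liver, fewer cells of a type and less RNA per cell cannot be told apart.

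A miRNA is a short RNA cut from a hairpin precursor. The arm that is retained guides Argonaute to messenger RNAs, mainly through its seed, the bases near its 5' end, and the other arm, formerly marked with a star, is mostly degraded. miRBase gives numbers in the order in which entries are submitted. The conserved and abundant liver miRNAs therefore carry low numbers, and high numbers came largely from small RNA sequencing, which picks up weakly expressed and rodent-specific hairpins as well as fragments of other RNAs.

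For 133 of the 289 probes (46.0%) the probe name is also the name of a RefSeq mature miRNA, and 222 (76.8%) have a RefSeq hairpin of the same number. Of the probes that changed with diet, 3 match by name. Their sequences are shown, 5' to 3' with the seed (bases 2 to 8) in capitals, because they identify what those probes were named for.
miR-1902: aGAGGUGCaguaggcaugacuu
miR-5128: cAAUUGGGgcuggcgagauggcu
miR-5130: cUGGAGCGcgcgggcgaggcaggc
In RefSeq on GRCm38.p6, miR-1902 lies at chr2:104428871-104428892 on the minus strand inside Hipk3. miR-5128 lies at chr2:37688212-37688234 on the minus strand inside Strbp, and miR-5130 at chr14:102982608-102982631 on the minus strand inside Kctd12. The 3 seeds differ from each other. G and C make up 83.3% of miR-5130, the highest share among the changed probes whose sequence is shown here.

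For 5 more of the changed probes RefSeq holds both arms, but the array name does not say which arm the probe detects. The arms of the 3 with the largest changes are shown so that either reading can be followed.
miR-3090-5p: gUCUGGGUggggccugagauc
miR-3090-3p: uCCCAGGUgacacccugacuca
miR-5132-5p: gCGUGGGGugguggacucagg
miR-5132-3p: cUGAUGUUccccaucccgcag
miR-1224-5p: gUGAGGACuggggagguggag
miR-1224-3p: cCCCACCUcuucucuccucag
The miR-3090 arms lie at chr2:133564722-133564742 and chr2:133564760-133564781 on the plus strand, outside any other gene. The miR-5132 arms lie at chrX:74023571-74023591 and chrX:74023534-74023554 on the minus strand inside Irak1, which encodes a kinase of Toll-like and interleukin receptor signalling. The miR-1224 arms lie at chr16:20604452-20604472 and chr16:20604516-20604536 on the plus strand inside Vwa5b2. The miR-1224 hairpin is a known mirtron, a short intron that is folded and processed as a precursor after splicing. Mature sequences for miR-1949, miR-3084, miR-5097, miR-5099, miR-5105 and miR-5115 are not printed here, because matching by name and number found none in RefSeq. Of these probes, only miR-5099 had a RefSeq hairpin of the same number.

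Most late-numbered probes gave signals close to those of spots that carry no mouse probe. The median late-numbered probe read between 240 and 271 intensity units across the 8 arrays, while the array means of blank spots ran from 203 to 225 and those of negative control spots from 226 to 266. A probe was called above a limit on an array when its intensity exceeded the mean of those spots by more than 2 SD. Above the blank limit lay 249, 125, 264 and 248 late-numbered probes on the 4 control arrays, and 190, 201, 256 and 252 on the 4 MCD arrays. The means were 221.5 ± 64.7 in control and 224.75 ± 34.1 in MCD liver (SD, n = 4), and the groups overlapped. Control 2 stood alone at 125 (43.3% of the 289), and its blank spots had the largest SD of the 8 arrays. The drop was not particular to this list, since 42.4% of all 1135 miRNA probes passed on control 2.

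The negative control limit was passed by far fewer probes. It was exceeded by 71, 46, 56 and 64 late-numbered probes in the control arrays and by 97, 51, 46 and 47 in the MCD arrays, means of 59.25 ± 10.8 and 60.25 ± 24.6 (SD, n = 4). The count of 97 (33.6%) came from MCD 1, where the negative control limit was 250 intensity units against 281 to 293 on the other arrays. On those 7 arrays the share ran from 15.9% to 24.6%. Among all 1135 miRNA probes the share on MCD 1 was similarly high, at 35.6%. Over all arrays, 52 late-numbered probes exceeded this limit on 4 or more arrays, and 153 (52.9%) exceeded it on none. Mouse probes numbered below 1000 were close to this, with 20.9% above it on 4 or more arrays and 52.6% on none. Viral probes gave 10.3% and 59.0%.

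**Figure D1:**
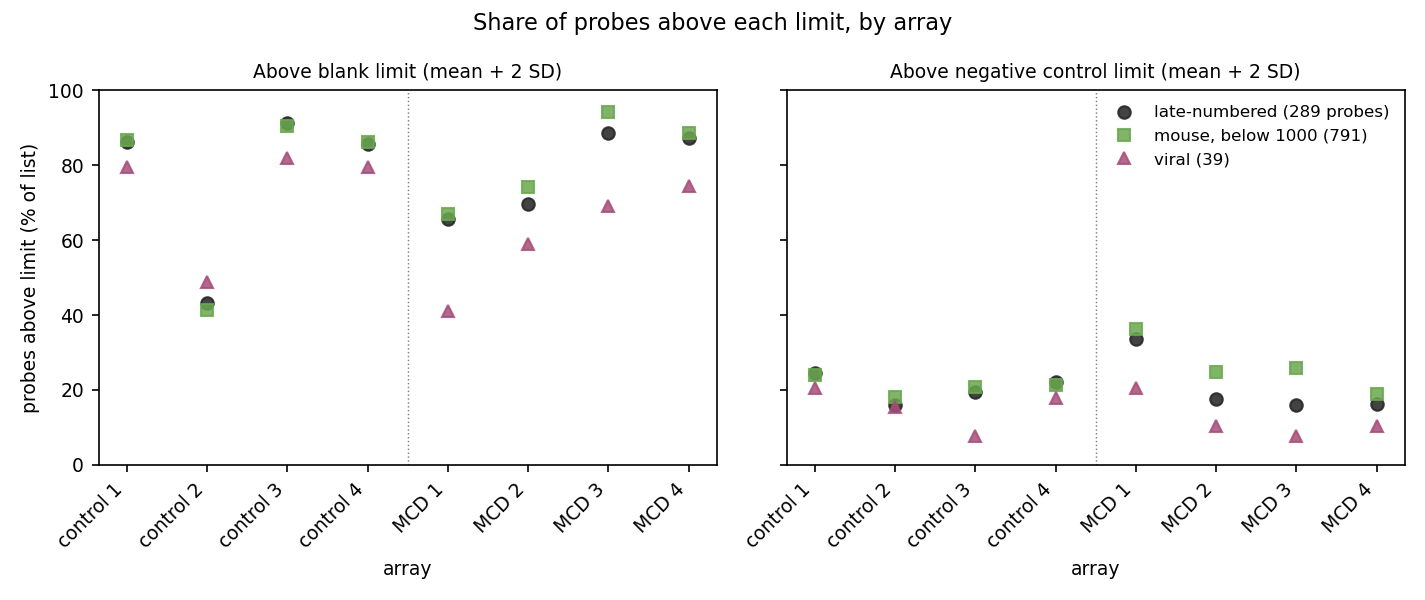
Share of probes above the blank limit (left) and the negative control limit (right) on each array, in percent of 289 late-numbered, 791 lower-numbered mouse and 39 viral probes; each point is 1 list on 1 array. Control 2 falls to 43.3% on the left and MCD 1 rises to 33.6% on the right for the late-numbered probes.

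By number range, 16.1% of the 1000s (18 probes), 14.2% of the 3000s (19 probes) and 33.3% of the 5000s (13 probes) exceeded the negative control limit on 4 or more arrays, as did 2 of the 4 probes of the 2000s. On every array the share was higher in the 5000s, where 11 to 19 of 39 probes passed, than in the 1000s (14 to 37 of 112) or the 3000s (14 to 40 of 134). The probe shared by miR-486 and miR-3107, counted here by its higher number, was above this limit on 0 of the 8 arrays. The lowest number inside the rule was miR-1186, which changed by 0.03 ± 0.13 (SE) on the log2 scale, and the highest outside it were the miR-883 arms, none of which passed the test.

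The 3 brightest late-numbered probes were all in the 5000s, and none of them had a RefSeq hairpin of the same number. miR-5097 read 3569, 3152, 2851 and 2629 intensity units in control and 5285, 4401, 4065 and 4023 in MCD arrays, so that every MCD array was above every control array. miR-5105 read 4547, 3303, 3594 and 3875 in control and 3116, 2397, 2253 and 2425 in MCD arrays, with all MCD arrays below all controls before normalization. miR-5109 read 3078, 2465, 2748 and 2612 in control and 2870, 2163, 2433 and 2024 in MCD arrays, and its groups overlapped. Brightness also depends on the probe, so the levels of different miRNAs are not ranked by it.

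In the other ranges the brightest probes were dimmer. Among the 1000s, miR-1195 read 927 to 1345 units in control and 1030 to 1476 in MCD arrays, miR-1224 read 555 to 695 and 486 to 594, and miR-1894-3p read 420 to 505 and 396 to 510. Among the 3000s, miR-3102* read 978 to 1919 in control and 913 to 1247 in MCD arrays, miR-3963 read 1099 to 1349 and 872 to 1078, and miR-3473b read 792 to 1470 and 588 to 1221. The 3 brightest of the 2000s, miR-2136, miR-2182 and miR-2183, lay between 235 and 340 units on every array, and miR-2183 never exceeded the negative control limit.

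To compare the diets, 1076 of the 1135 probes were tested, those above the blank limit on at least 4 arrays, with limma on log2 intensities and Benjamini-Hochberg adjustment over all of them. Across all tested probes 10.2% passed an adjusted p of 0.05, 5.76% higher and 4.46% lower in MCD liver. Of the 289 late-numbered probes 270 were tested, and 5 were higher (1.85%) and 10 lower (3.70%), together 5.56%. With the 16 excepted probes put back the counts were 9 higher and 16 lower of 284 tested, or 8.80%. No late-numbered probe changed by more than 2-fold with this processing. Under other settings the log2 change reached 1.86 for miR-1949, 1.01 for miR-5097, -1.06 for miR-5128 and -1.13 for miR-5130, and miR-1912, whose MCD arrays do not pass the blank limit, reached -2.68. At an unadjusted p under 0.05, 15 were higher and 29 lower of these 270, against 135 higher and 98 lower of the 1076. The remaining 19 probes failed the filter, and their intensities ran from 187 to 384 units.

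The late-numbered probes as a list lay slightly on the lower side. Their median log2 change was -0.052, against -0.012 over all tested probes and 0.0091 over the 762 tested lower-numbered mouse probes. A positive change was found in 97 of 270 (35.9%), against 47.5% of all tested probes and 52.6% of the lower-numbered mouse probes. Viral probes had a median of -0.12, lower than the late-numbered median, and 23.3% of those tested had a positive change. Without the filter, the median of all 289 was -0.051.

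By number range the medians were -0.020 in the 1000s, -0.11 in the 4 probes of the 2000s, -0.073 in the 3000s and -0.10 in the 5000s. The 1000s held 1 higher and 4 lower probes of 106 tested and the 2000s held none. The 3000s held 2 higher and 1 lower of 124, or 2.42%. The highest range held 2 higher and 5 lower of 36, or 19.4%, against the 10.2% over all probes, so 7 of the 15 changed late-numbered probes were numbered 5000 or higher.

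**Figure D2:**
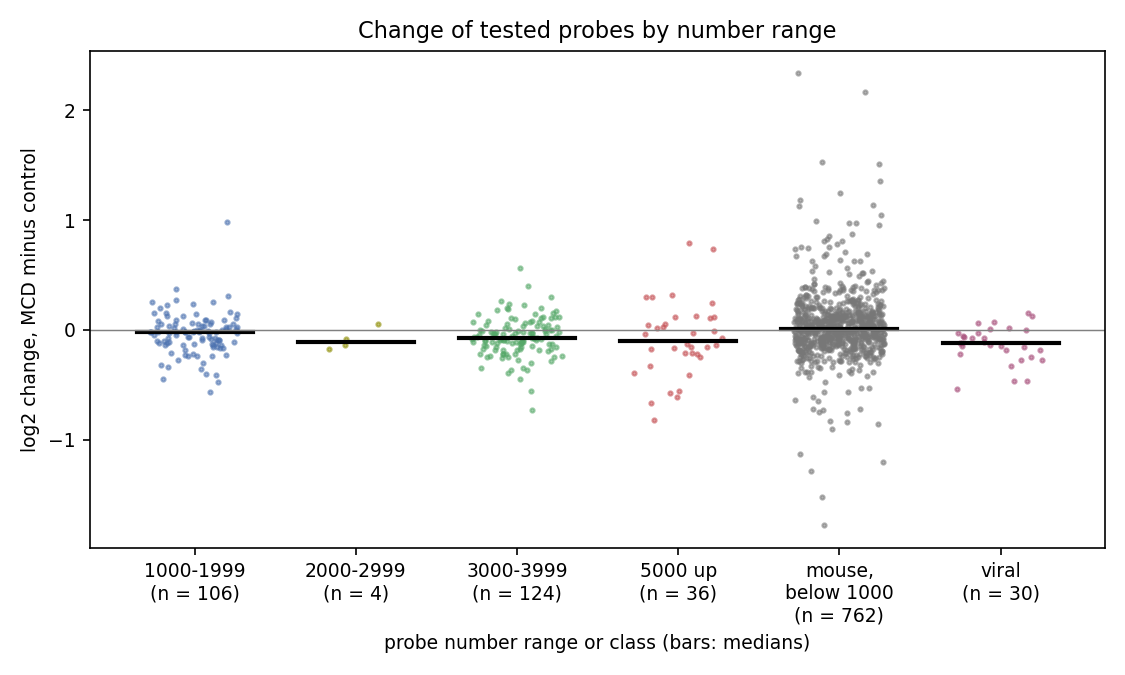
Log2 change (MCD minus control) of every tested probe by number range, with lower-numbered mouse and viral probes beside them; each point is 1 probe and the bars are medians. The medians of the late-numbered ranges lie between -0.11 and -0.020, and no late-numbered point lies beyond the largest changes of the lower-numbered mouse probes.

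Nearly all changed probes were also detected. Of the 15 changed probes, 14 passed the negative control limit on 4 or more arrays, the exception being miR-1912. Among probes detected in that way, 5 were higher and 9 lower of 52 late-numbered probes, beside 48 higher and 43 lower of 232 over the whole array. A probe raised or lowered by the diet can reach this limit through its brighter group, so these counts only describe where the calls lie.

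**Figure D3:**
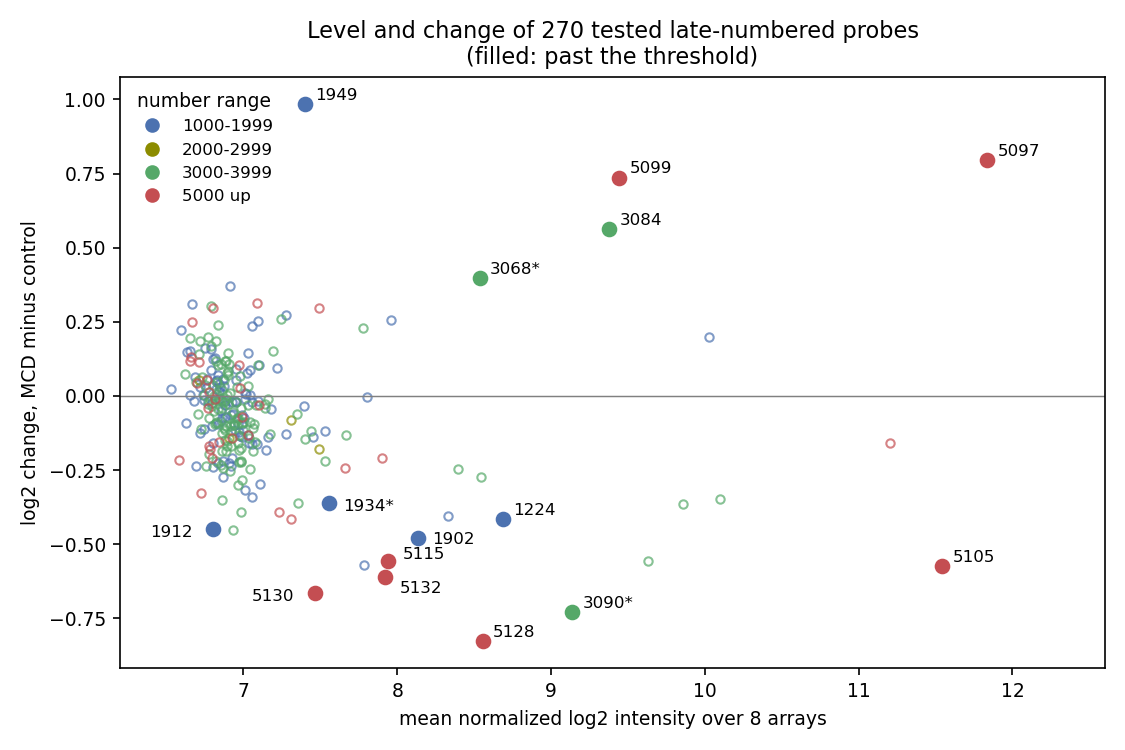
Mean normalized log2 intensity over the 8 arrays (horizontal) against log2 change, MCD minus control (vertical), for the 270 tested late-numbered probes, coloured by number range; filled points passed an adjusted p of 0.05 and carry their number. Most open points lie below a level of 7.5, and 1912 is the only filled point below a level of 7.

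In MCD liver 5 late-numbered probes were higher, and in each the lowest MCD array exceeded the highest control array. Such separation was found in 8.83% of all tested probes and in 11 of the 270 late-numbered ones. miR-1949 had the largest rise. Its normalized log2 intensities were 6.93, 6.84, 7.04 and 6.83 in control and 7.92, 7.92, 7.78 and 7.95 in MCD arrays. The MCD values were tightly grouped and none of the control arrays exceeded the negative control limit, which all 4 MCD arrays passed. The log2 change was 0.99 ± 0.09 (SE; 1.98-fold, limma adjusted p = 1.75e-05), and because the control arrays lie near the floor this fold depends on the background step.

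miR-5097 was both the brightest late-numbered probe and the one with the second largest rise. It read 11.42, 11.48, 11.38 and 11.48 in control and 12.07, 12.68, 11.65 and 12.54 in MCD arrays on the normalized log2 scale. After normalization the control arrays lay close together and the MCD arrays were spread, with MCD 3 nearest to the controls, whereas before it both groups had a similar relative spread and MCD 4 was the lowest MCD array. Its log2 change was 0.80 ± 0.18 (SE; 1.74-fold, limma adjusted p = 0.0156). Without MCD 2 the change was 0.67 and the adjusted p was 0.0506.

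miR-5099 read 8.92, 8.95, 9.22 and 9.22 in control and 10.08, 9.64, 9.45 and 10.08 in MCD arrays. The gap between the groups was narrower than the range within either, and MCD 3 was again the lowest of its group. The log2 change was 0.74 ± 0.15 (SE; 1.67-fold, limma adjusted p = 0.00612). RefSeq places a hairpin of this number at chr12:36816205-36816278 on the plus strand, outside any other gene.

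Both remaining rises were in the 3000s. miR-3084 read 9.02, 9.15, 9.15 and 9.06 in control and 9.89, 9.56, 9.22 and 9.97 in MCD arrays, a log2 change of 0.56 ± 0.15 (SE; 1.48-fold, limma adjusted p = 0.0284). MCD 3, at 9.22, lay only just above the control arrays. It no longer passed without control 1, control 3, control 4, MCD 1, MCD 2 or MCD 4, each left out alone, with changes of 0.47 to 0.61 and limma adjusted p of 0.0557 to 0.106. miR-3068*, from a hairpin inside the DNA and RNA demethylase gene Alkbh1, read 8.32, 8.37, 8.44 and 8.22 in control and 8.78, 8.76, 8.53 and 8.85 in MCD arrays. Its change was 0.40 ± 0.10 (SE; 1.32-fold, limma adjusted p = 0.0242), again with MCD 3 lowest among the MCD arrays. This call was lost without control 1, control 4, MCD 1 or MCD 2, with changes of 0.37 to 0.39 and limma adjusted p of 0.0644 to 0.0681.

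The arms of miR-3068, of which the array name does not say which is the starred one, are shown because the unstarred probe had a change in the same direction.
miR-3068-5p: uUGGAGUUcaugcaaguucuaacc
miR-3068-3p: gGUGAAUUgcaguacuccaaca
They lie at chr12:87437724-87437747 and chr12:87437685-87437706 on the minus strand. The unstarred miR-3068 read 7.18, 7.22, 6.90 and 7.15 in control and 7.40, 7.24, 7.40 and 7.45 in MCD arrays. The groups did not overlap, but the log2 change of 0.26 ± 0.10 (SE) did not pass (limma adjusted p = 0.148).

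In MCD liver 10 late-numbered probes were lower. In 8 of them the MCD arrays lay wholly below the control arrays, and miR-5105 and miR-5130 overlapped. Separation in this direction was found in 6.23% of all tested probes and in 19 of the 270 late-numbered ones. miR-5128 had the largest fall. It read 9.26, 8.43, 8.85 and 9.34 in control and 8.05, 7.99, 8.41 and 8.12 in MCD arrays. Control 2 and MCD 3 met at 8.43 and 8.41. The log2 change was -0.83 ± 0.18 (SE; 1.77-fold lower, limma adjusted p = 0.0105).

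Part of the miR-5128 sequence recurs in miR-3473b, 1 of the 3 brightest probes of the 3000s. The pair is shown aligned by its 17 shared positions, with matching bases in capitals and 1 mismatch in lower case between them.
miR-3473b: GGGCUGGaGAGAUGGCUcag
miR-5128: caauugGGGCUGGcGAGAUGGCU
miR-3473b lies at chr10:41670774-41670793 on the plus strand inside Ccdc162, so the likeness is not one of position. Its log2 intensities were 9.89, 9.45, 9.73 and 10.56 in control and 9.42, 8.89, 9.79 and 9.30 in MCD arrays. The groups overlapped, with MCD 3 among the controls, and the change of -0.56 ± 0.23 (SE) did not pass (limma adjusted p = 0.164). Whether the probes cross-hybridise was not tested. In a search of all late-numbered mature sequences that matched by name, for overlaps of at least 15 bases with at most 2 mismatches, this was 1 of 3 such pairs, and only miR-3064-5p and miR-3085-3p shared a seed. Another pair joined miR-3473b to miR-1931 over 16 bases with 2 mismatches. miR-1931 did not fall, with a change of 0.09 ± 0.09 (SE, limma adjusted p = 0.636). In the remaining pair, miR-1961 and miR-3962, neither probe was tested.

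miR-3090* fell from 9.79, 9.02, 10.05 and 9.15 in control to 8.89, 8.71, 8.55 and 8.95 in MCD arrays. The control arrays were split, 2 at or above 9.79 and 2 at or below 9.15, and the lower of these lay close to the MCD arrays. The log2 change was -0.73 ± 0.20 (SE; 1.66-fold lower, limma adjusted p = 0.0379). It did not pass without control 1, control 3, MCD 1, MCD 2 or MCD 3, with changes of -0.78 to -0.54 and limma adjusted p of 0.082 to 0.124, nor with a block for the arrays' horizontal scan offset (limma adjusted p = 0.0508). miR-5130, the G- and C-rich sequence shown above, read 8.10, 7.20, 7.80 and 8.08 in control and 7.22, 7.04, 7.19 and 7.06 in MCD arrays. Control 2, at 7.20, fell among the MCD arrays, and the change was -0.66 ± 0.17 (SE; 1.58-fold lower, limma adjusted p = 0.0266). Leaving out any array but control 2 ended this call, with changes of -0.68 to -0.56 and limma adjusted p of 0.0536 to 0.0995.

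miR-5132 had the smallest SE among the falls. It read 8.22, 8.23, 8.09 and 8.35 in control and 7.65, 7.56, 7.64 and 7.61 in MCD arrays. The gap between the groups was wider than either group's range. The log2 change was -0.61 ± 0.09 (SE; 1.53-fold lower, limma adjusted p = 0.000755). miR-5115 had similar values, at 8.27, 8.06, 8.24 and 8.31 in control and 7.68, 7.73, 7.48 and 7.77 in MCD arrays, and its change was -0.56 ± 0.10 (SE; 1.47-fold lower, limma adjusted p = 0.00298). Unlike that of miR-5132, this call was lost with global, 75th percentile or no scaling. It was also lost with the blank mean subtracted and with the authors' processed values.

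miR-5105, the second brightest late-numbered probe, read 11.84, 11.56, 11.91 and 12.02 in control and 11.30, 11.38, 10.75 and 11.59 in MCD arrays. MCD 4 lay just above control 2, so the groups overlapped, and the change was -0.57 ± 0.16 (SE; 1.49-fold lower, limma adjusted p = 0.0438). The call was lost without control 1, control 3, control 4, MCD 1, MCD 2 or MCD 3, with changes of -0.62 to -0.40 and limma adjusted p of 0.0738 to 0.144, and with the scan offset block (limma adjusted p = 0.0595). miR-5109, of like brightness, read 11.24, 11.15, 11.33 and 11.42 and then 11.24, 10.93, 10.93 and 11.38, with overlapping groups and a change of -0.16 ± 0.12 (SE, limma adjusted p = 0.509).

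In the 1000s there were 4 falls. miR-1902, from within Hipk3, read 8.30, 8.35, 8.41 and 8.44 in control and 7.94, 7.97, 7.55 and 8.12 in MCD arrays, and changed by -0.48 ± 0.12 (SE; 1.39-fold lower, limma adjusted p = 0.0237). The mirtron miR-1224 read 8.89, 8.78, 8.94 and 8.97 in control and 8.57, 8.49, 8.27 and 8.60 in MCD arrays, and changed by -0.41 ± 0.10 (SE; 1.33-fold lower, limma adjusted p = 0.0203). miR-1934* read 7.65, 7.69, 7.92 and 7.68 in control and 7.48, 7.33, 7.20 and 7.49 in MCD arrays, and changed by -0.36 ± 0.10 (SE; 1.28-fold lower, limma adjusted p = 0.0459). In all 3 the groups were separate, and in each MCD 3 was the lowest array. miR-1902 lost its call without control 1, control 3 or control 4 (changes of -0.50 to -0.46, limma adjusted p of 0.0519 to 0.0796), and miR-1224 without any of these or MCD 3 (-0.40 to -0.33, limma adjusted p of 0.0535 to 0.0645). miR-1934* lost it without any array but MCD 4 (-0.39 to -0.29, limma adjusted p of 0.0622 to 0.125) and with the scan offset block (limma adjusted p = 0.063).

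miR-1912 is encoded within Htr2c, a serotonin receptor gene best known from the brain. It read 7.09, 7.10, 6.91 and 6.99 in control and 6.71, 6.37, 6.61 and 6.62 in MCD arrays. All control arrays passed the blank limit and no MCD array did, and no array of either diet passed the negative control limit. Since the MCD values bound the level only from above, the fall with this processing is given as at least 1.30-fold (measured log2 means 7.02 and 6.58, limma adjusted p = 0.0135). The fold takes the higher, on each MCD array, of the probe's own value and the lowest signal above the limit. Under the alternatives the log2 change of miR-1912 ran from -2.68 to -0.21, so this bound does not hold for every setting. The array name does not say which arm is meant, and RefSeq lists 1 arm only.
miR-1912-3p: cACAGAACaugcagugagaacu
It lies at chrX:147009493-147009514 on the plus strand. The other late-numbered hairpin in Htr2c, miR-1298, gave changes of 0.16 and, for its star arm, -0.08, neither of which passed (limma adjusted p = 0.438 and 0.778).

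**Figure D4:**
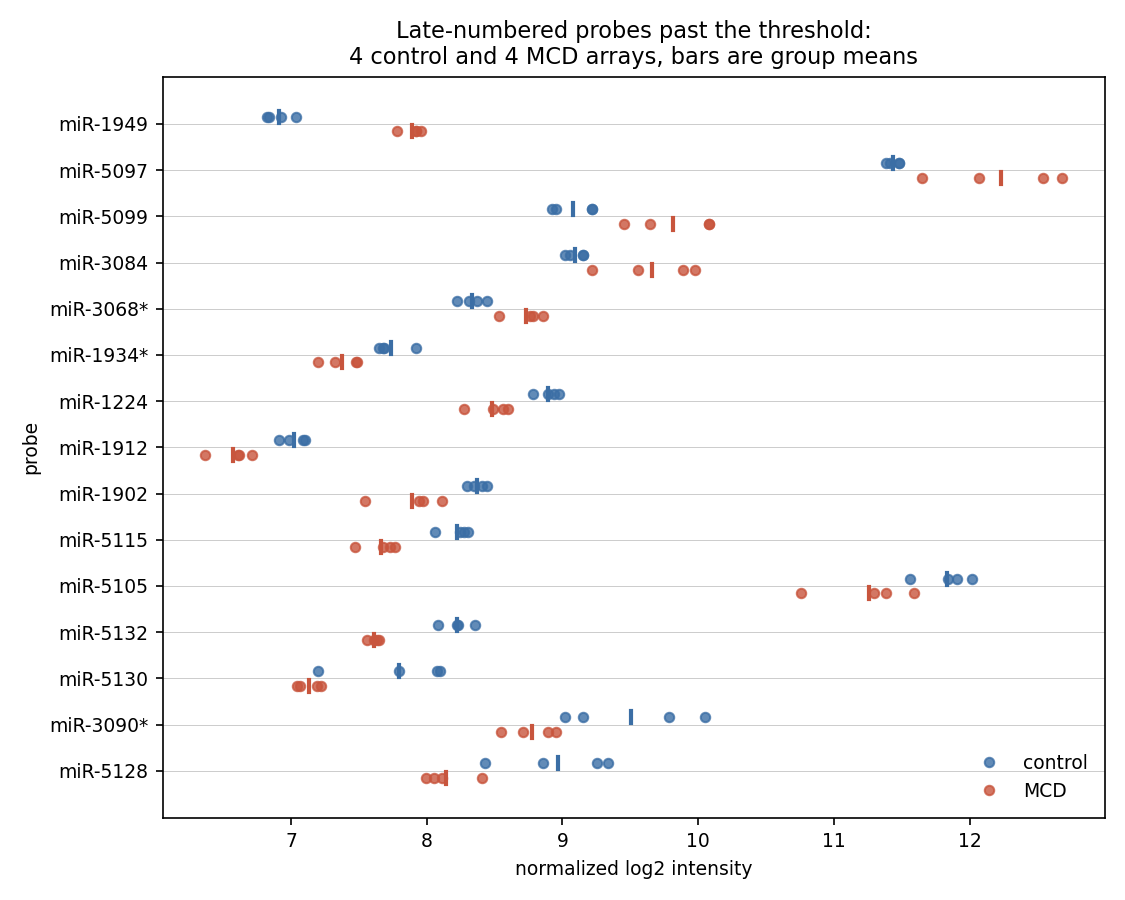
Normalized log2 intensity of the 15 late-numbered probes that passed the test, with 1 point per array (4 control, 4 MCD) and bars at the group means. The points of the 5 upper probes are higher in MCD arrays; among the 10 lower ones, the diets overlap for miR-5105 and miR-5130.

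The brightest probes that did not pass mostly had negative changes. miR-1894-3p changed by -0.40 ± 0.12 (SE, limma adjusted p = 0.0564), miR-3963 by -0.37 ± 0.12 (SE, limma adjusted p = 0.0815) and miR-3102* by -0.35 ± 0.21 (limma adjusted p = 0.394). miR-1195 changed by 0.20 ± 0.16 (SE, limma adjusted p = 0.55). The 3 of the 2000s changed by -0.18, -0.08 and -0.14, with limma adjusted p from 0.397 to 0.727. On the normalized scale no MCD array of miR-3963 exceeded a control array, control 1 and MCD 4 being tied at 9.94, and in spot intensity its MCD arrays lay below its controls. miR-1894-3p was likewise tied on the normalized scale, control 3 and MCD 1 both reading 8.35, but its spot intensities overlapped. The diets overlapped for the remaining probes.

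Both arms of a hairpin were on the array for 78 late-numbered miRNAs, and both were tested for 69. No hairpin had both arms past the threshold. In 6 hairpins 1 arm passed, and in each it was the brighter arm. Since 5.56% of all tested late-numbered probes passed, the lack of a double call says little about these hairpins. The same count was not made over the whole array. Their other arms changed by 0.30 (miR-3084*), 0.26 (miR-3068), 0.10 (miR-1224*), -0.03 (miR-3090), -0.16 (miR-1934) and -0.24 (miR-1912*). Only miR-1224* had a sign opposite to its changed arm, and miR-1224* and miR-3090 lay within 1 SE of 0. All 6 were dim, between 6.39 and 7.47 on every array.

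Across the 69 hairpins the arms had the same sign in 35 (25 both negative, 10 both positive) and opposite signs in 34. Pearson's r between the changes of the arms was 0.23 and Spearman's rho was 0.09 over these 69 pairs, which share the same 8 arrays and in which most arms lie near background.

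**Figure D5:**
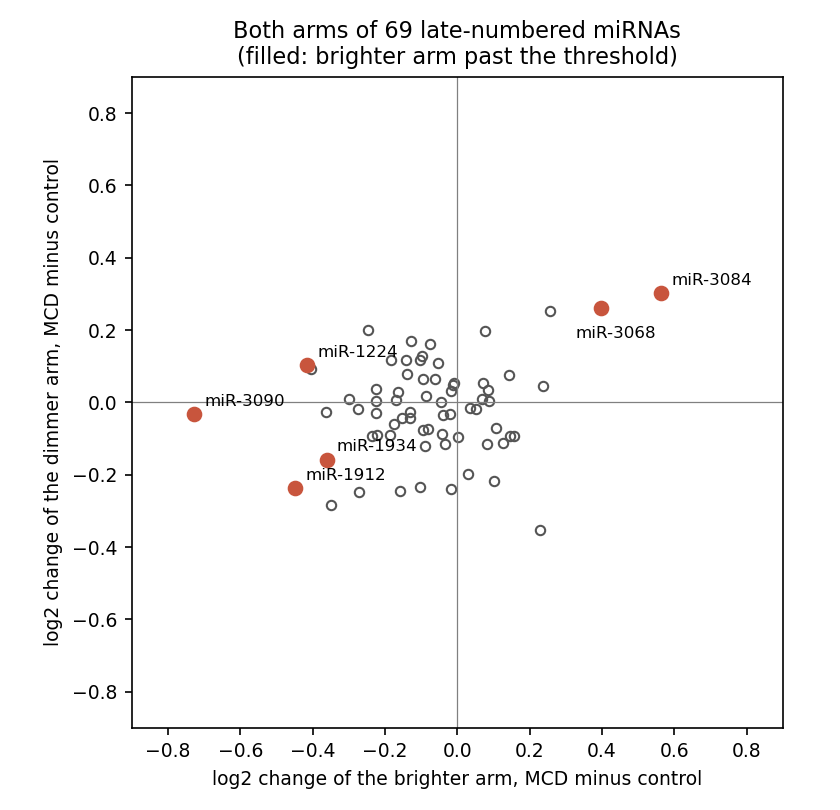
Log2 change (MCD minus control) of the brighter arm (horizontal) against that of the dimmer arm (vertical) for 69 late-numbered hairpins with both arms tested; filled points are the 6 hairpins whose brighter arm passed the threshold. The open points cluster around 0 on both axes, and no filled point has a dimmer arm that passed.

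By genome position, 192 of the 222 probes with a RefSeq hairpin lay inside the span of another gene, as did 7 of the 9 changed ones. A group of 11 late-numbered probes came from the imprinted miRNA region of chromosome 12 or from close by. They were miR-3070a, the probe shared by miR-3070a* and miR-3070b-5p, miR-3070b-3p, miR-3071 and miR-3071* within Rtl1, both arms of miR-1188 in Rian, both arms of miR-3072 in Mirg, and both arms of miR-1247 downstream. None passed. miR-3072 and miR-3072* were the only ones above the negative control limit on all 8 arrays, and they changed by -0.25 ± 0.12 and -0.27 ± 0.11 (SE, limma adjusted p = 0.239 and 0.152).

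The identity of the tissue and its cell makeup were read from lower-numbered probes, apart from a red cell probe. That probe, shared by miR-486 and miR-3107, is itself counted here as late-numbered. miR-122, which defines hepatocytes, averaged 36990 intensity units in control arrays. All 4 hepatocyte probes were lower in MCD liver (miR-122 by -0.83 on the log2 scale), and the log2 of their summed level ran from 15.35 to 15.45 in control and 14.33 to 14.74 in MCD arrays. Of 5 mesenchymal probes 4 were higher, with summed log2 levels of 10.70 to 10.87 and 11.47 to 12.10. Of 4 leukocyte probes 2 were higher (9.42 to 9.53 and 9.65 to 10.17), and none of the red cell (9.35 to 10.87 and 9.63 to 11.37) or tested muscle probes (8.32 to 8.44 and 8.28 to 8.51) passed. The muscle probe miR-206 failed the filter and was not tested. No listed marker read 0. The rises and falls of the 15 late-numbered probes lie beside these shifts, whose part in them was not tested.

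The 4 control arrays lay at one height of the scan coordinates and the 4 MCD arrays at another, so position and diet cannot be told apart. Mean signal of the added spike controls was 14155 to 15199 units in control and 14973 to 18368 in MCD arrays. Scaling to these spikes moved the median of all tested probes to -0.24 and that of the late-numbered ones to -0.28, and the calls to 3 higher and 27 lower among the late-numbered and 34 higher and 93 lower among all tested probes. All 15 changed probes kept their direction under every alternative that gave them a value. The calls themselves were less stable. miR-5132 passed under 26 of 26 alternatives, miR-1949 under 25 of 25, and miR-5099 and miR-5128 under 24 of 26, whereas miR-1934* passed under 9. With global, 75th percentile or no scaling, the calls of miR-5115, miR-1902, miR-1224, miR-1934* and miR-3090* were each lost.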

How the data were processed

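Liver total RNA in 8 samples (4 per diet) had been labelled and hybridised to mouse miRNA oligonucleotide chips, read in 1 colour. The deposited scanner files hold the median intensity of each spot and of its local background, and per the study's methods the authors scaled their own table. Here spot intensity was corrected for local background by normexp (offset 50) over all spots, quantile-normalized over the 1135 miRNA probes and taken to log2. Probes above the blank mean plus 2 SD on at least 4 arrays were tested with limma 3.58.1 in R 4.3.3 (lmFit and eBayes, Benjamini-Hochberg, threshold 0.05), after a check on simulated data. The authors' table, whose columns all have a median of 45, which leaves dim probes empty and whose order of probes follows the scanner intensity on each array, served as an alternative. Named were all passing late-numbered probes, the 3 brightest of each range and the other arms of passing probes. Members and lists were chosen with earlier results of these data known, and the search for overlapping sequences was added after values were seen. Base composition was not set against level or change, because under 80% of the probes had a RefSeq sequence of the same name. Alternatives changed the background step, scaling, filter, test, block and the arrays included. The number of arrays limits the precision.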

Additional observations from a re-analysis of the deposited data

Results flagged for a closer look

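In 80 sets of 4 arrays, made of the named probes and the detection counts in each diet, 7 had an array whose gap to the nearest of the other 3 was over 0.829 of the whole range. Chance alone gives such a gap in about 1 in 20 sets, and these sets share arrays and probes. Among probes, miR-1934* read 7.92 on control 3 and miR-1912* read 7.03 on MCD 4, each above the other arrays of its diet. Control 2 had the fewest probes above the blank limit, 125 of the late-numbered list, 48 of the 1000s and 481 of all 1135 miRNA probes. MCD 1 had higher counts than the other MCD arrays above the negative control limit, 97 of the list, 37 of the 1000s and 18 of those numbered 5000 or higher, where control 1 had 19. Of all 1135 miRNA probes 404 passed this limit on MCD 1, also the highest count of the MCD arrays.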

How the results depend on the processing

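No passing probe changed sign under any alternative. Relative to 5 higher and 10 lower late-numbered probes (62 and 48 of all tested probes), blank subtraction gave 1 and 1 (29 and 15 of all), the methods' t-test 1 and 4 after Benjamini-Hochberg adjustment (37 and 24) and 15 and 27 unadjusted (123 and 94), spike scaling 3 and 27 (34 and 93), the authors' processed values 2 and 7 (43 and 35; 146 late-numbered probes with a value), and the excepted probes put back 9 and 16. Global, 75th percentile and no scaling each left 5 lower late-numbered probes, beside 31, 31 and 33 lower of all tested probes. Leaving out 1 array gave 2 to 6 higher and 3 to 11 lower: 3 and 4 without control 1, 4 and 3 without control 3, 3 and 4 without control 4, 3 and 8 without MCD 1, 2 and 6 without MCD 2, and 6 and 5 without MCD 3. The list's median of -0.052 became -0.074 with offset 16, -0.021 without background correction, -0.14 with blank subtraction, -0.035 with global scaling, -0.28 with spike scaling, -0.074 at 3 SD, -0.093 above the blank limit on all arrays, -0.14 above the negative control limit and -0.13 in the authors' table; without 1 array it ran from -0.063 to -0.035. By range, the 1000s went to -0.097 (blank subtraction), -0.26 (spikes), -0.061 (blank limit on all arrays), -0.080 (negative control limit) and -0.091 (authors' table), and to between -0.050 and -0.020 without 1 array. The 2000s went to -0.30 (blank subtraction), -0.30 (spikes) and -0.28 (authors' table), and nearer 0 at -0.055 (no correction and global scaling), -0.058 (75th percentile) and -0.069 without MCD 3. The 3000s went to -0.10 (offset 16), -0.030 (no correction), -0.20 (blank subtraction), -0.045 (global scaling), -0.048 (75th percentile), -0.29 (spikes), -0.13 (negative control limit) and -0.19 (authors' table). The 5000s went to -0.30 (spikes), -0.21 (blank limit on all arrays) and -0.39 (negative control limit), and nearer 0 at -0.030 (no correction), -0.041 (no filter), -0.055 (global scaling), -0.058 (75th percentile), -0.043 without control 1 and -0.059 without control 2. The cause of these shifts was not tested. Same-numbered arrays of the 2 diets deviated together only weakly (r = 0.08, 0.10, -0.01 and 0.06). For numbers 1, 2 and 4 this r still exceeded the highest r with another MCD array (0.008, 0.042 and 0.013). Whether the numbers pair the arrays cannot be told from these values, since most probes lie near background. With the replicate number as a block, 5 were higher and 12 lower, 13 of them among the 15 calls without it. Under that block miR-3068* and miR-1934* no longer passed. A block for the 2 sets of arrays that share a horizontal scan offset, added after seeing the data, gave 5 and 7. Counts over all tested probes are not given here for the blocks or for leaving out 1 array. Slide and scan date were not run as a block, since the files used here carry no such header. Most late-numbered probes lie near background, which limits what can be detected among them.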
